A study of Mus musculus with 6 samples.

Results

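The genes described here code for enzymes and regulators of the mevalonate pathway, of cholesterol synthesis and of fatty acid synthesis. They were taken from the count table by symbol, and all 29 were found among its 24407 genes. Their messenger RNA was compared between islets of Langerhans of C57BL/6 mice carrying the lmna LCS allele (LCS) and of wild-type mice (WT). Library titles mark the LCS group as KIKI and the WT group as wt. LCS mice are known as mice that make lamin C but not lamin A from the Lmna gene; the labels name no promoter or Cre that would limit the allele to some cells. All mice were 70 weeks old and ate regular chow, and their sex is not given in the sources used here. Each group had 3 libraries, and each library held the pooled islets of 3 mice, so the spread between libraries is a spread between pools.

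Cells build cholesterol from acetyl-CoA. HMG-CoA synthase acts on the way to mevalonate, a chain of kinases and a decarboxylase turns mevalonate into isoprenoid units, and these are joined to farnesyl diphosphate, which is used both for sterols and for the lipid anchors of proteins such as prelamin A. Squalene is then made, closed to lanosterol and trimmed to cholesterol. The SREBP transcription factors switch on these genes, and those of fatty acid synthesis, when sterols in the endoplasmic reticulum run low, while INSIG proteins hold SREBP back. In beta cells, acetyl-CoA made from glucose carbon feeds this synthesis, and fatty acids and cholesterol go into the membranes of insulin granules.

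SREBP acts on promoters together with the factor NF-Y, which binds CCAAT boxes. Promoters of 300 bases (250 before to 50 after the start of the gene) were found for 22 of the 29 genes in a RefSeq table of build GRCm38.p6; Fdps, Fdft1, Sqle, Stard4, Scd1, Scd2 and Fads1 were not in it. CCAAT on either strand was found in 18 of the 22 promoters (81.8%), against 37.4% of the 32851 promoters in the table. The sterol element core TCACNCCAC was found in 1 (4.55%, against 1.24% of all promoters), that of Hmgcs1, and the E-box CACGTG in 3 (13.6%, against 7.15%), those of Hsd17b7, Sc5d and Insig1. Both strands were searched for each motif, and no match overlapped a match to a different motif in the 22 promoters. In Fasn, the CCAAT matches that begin at -62 and -59, on opposite strands, overlapped each other. The shares over all promoters were taken over every entry of the RefSeq table, with no selection for protein-coding genes. The 22 genes of the set all code for proteins, and each was counted once. A match is a description of the letters and not a measured binding site. No CCAAT was found in the promoters of Dhcr7, Acaca, Elovl6 and Fads2, which are not shown. The 4 promoters below, each without the 50 bases after the start, show the range from several CCAAT boxes to a single one. They run 5′ to 3′ along the gene's strand, with CCAAT (or its reverse ATTGG), the sterol element core and the E-box in capitals.
Hmgcs1, chr13:119690101-119690350, plus strand: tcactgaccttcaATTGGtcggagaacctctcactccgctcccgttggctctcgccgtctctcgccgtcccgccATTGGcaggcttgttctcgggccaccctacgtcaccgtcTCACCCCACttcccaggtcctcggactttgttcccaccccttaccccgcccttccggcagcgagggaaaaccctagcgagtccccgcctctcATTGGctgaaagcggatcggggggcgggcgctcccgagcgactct
Mvk, chr5:114444019-114444268, plus strand: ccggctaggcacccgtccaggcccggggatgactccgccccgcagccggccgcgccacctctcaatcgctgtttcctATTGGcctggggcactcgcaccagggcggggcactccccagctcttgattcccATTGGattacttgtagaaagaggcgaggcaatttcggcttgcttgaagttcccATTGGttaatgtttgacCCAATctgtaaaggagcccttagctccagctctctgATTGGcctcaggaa
Insig1, chr5:28071162-28071411, plus strand: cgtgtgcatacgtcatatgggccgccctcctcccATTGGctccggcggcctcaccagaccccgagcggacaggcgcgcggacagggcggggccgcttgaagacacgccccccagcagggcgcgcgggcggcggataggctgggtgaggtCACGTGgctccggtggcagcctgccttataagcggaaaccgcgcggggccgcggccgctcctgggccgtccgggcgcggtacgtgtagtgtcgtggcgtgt
Sc5d, chr9:42264301-42264550, minus strand: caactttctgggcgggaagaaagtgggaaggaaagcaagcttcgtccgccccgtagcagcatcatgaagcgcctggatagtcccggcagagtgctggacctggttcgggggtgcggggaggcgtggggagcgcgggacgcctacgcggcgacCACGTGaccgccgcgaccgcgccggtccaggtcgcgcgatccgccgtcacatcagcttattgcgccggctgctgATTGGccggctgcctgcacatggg
The Hmgcs1 match to the sterol element core begins at -137 from the start of the gene. Mvk held 5 CCAAT boxes, at -173, -120, -67, -50 and -14, and Sc5d held 1, at -24. The E-boxes of Insig1 and Sc5d begin at -101 and -98.

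CPM below are counts scaled to the TMM-adjusted size of each library. Values per library are in the order of replicates 1, 2 and 3. The TMM factors were 0.689, 0.7485 and 0.6327 for LCS and 1.395, 1.498 and 1.466 for WT. Summed over all genes, scaled CPM were therefore 1336200 to 1580800 in LCS and 667740 to 716970 in WT. The libraries held 26123654 to 68036676 counts. Those on the rows Rn45s, Lars2 and Mir6236 took 54.1%, 52.3% and 53.9% of the LCS counts. In WT they took 18.5%, 7.64% and 9.999%, with WT replicate 1 the highest. The name ribosomal rows is used here as a label for these rows, not as a statement of what Lars2 or Mir6236 codes for. Outside these rows, the libraries held 19057533 to 32462401 counts. Lmna, which a count per gene cannot split into lamin A and lamin C, had 62.4, 62.0 and 78.9 CPM in LCS and 61.3, 27.3 and 21.0 CPM in WT, and it does not check the labels. The beta cell markers summed to 175030 to 263580 CPM in LCS and 147690 to 171940 in WT, with none of the 9 called. Most of that sum was insulin RNA (Ins2 and Ins1). Of the 9, 6 were above 0, among them Ins2 at 0.63 (edgeR adjusted p = 0.186) and Pdx1 at 0.35 (0.465). The other 3 were below 0, among them Slc2a2 at -0.77 (edgeR adjusted p = 0.134) and G6pc2 at -0.44 (0.183). Markers of acinar cells, the enzyme-making cells around islets, summed to 487.6 to 864.7 CPM in LCS and 133 to 211 in WT, and all 12 that were tested rose (Amy2a5 was listed at 0). Adipocyte markers bear on lipid genes directly. Plin1, Cfd and Car3 were at 0 counts in every library and Adipoq had 1 count over the 6 libraries. The 10 genes summed to 15.1 to 17.3 CPM in LCS and 7.71 to 12.2 in WT, nearly all of it Fabp4 (means of 14.9 and 9.97 CPM), which endothelial cells and macrophages also express. Macrophage markers summed to 77.4 to 94.98 CPM in LCS and 51.9 to 64.4 in WT, with 1 of 8 called (Lyz2, higher); C1qa and Lyz2 held most of the difference in the sum, and 4 of the 8 (Adgre1, Csf1r, Cd68 and Mrc1) were below 0. Of the other endocrine markers, Rbp4 (1 of 3 delta cell genes) and Ppy (the PP cell gene) were called higher and none of 5 alpha cell genes was called; the delta list summed to 1743.5 to 2283 CPM in LCS and 307 to 1316 in WT, Ppy to 1632 to 3379 and 526 to 942, and the alpha list to 16282 to 21633 and 12424 to 16299. No duct, endothelial or stellate and fibroblast marker was called, with summed ranges in LCS and WT of 512 to 635 and 307 to 611 CPM for duct, 157 to 172 and 126 to 155 for endothelial and 25.8 to 57.6 and 26.9 to 86.1 for stellate cells and fibroblasts. The part of the acinar and macrophage markers and of the ribosomal rows in the results below was not tested. In bulk RNA, fewer cells of a type and less RNA per cell cannot be told apart.

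Scd2, a stearoyl-CoA desaturase, was the single gene of the set that passed the test, and it fell in LCS islets. Of the 28 genes tested, 1 was lower (3.57%) and none higher at an edgeR adjusted p under 0.05, against 0.144% of all 14539 tested genes lower and 2.06% higher. At an unadjusted p under 0.05, 6 were lower (21.4%, against 10.8% of all tested genes) and none higher (against 13.3%). These 6 were Stard4, Scd2, Scd1, Idi1, Elovl6 and Sc5d. All LCS libraries lay below all WT libraries for 7 genes (25%, against 12% of all tested genes) and above them for none (against 14.6%). The median log2 fold change (LCS minus WT) was -0.01 over the 28 genes and 0.01 over all tested genes, and 14 genes had a value above 0 and 14 below. DESeq2 called 3 genes lower (Scd1, Scd2 and Stard4) and none higher, while it called 3.93% of all tested genes lower and 6.44% higher. Without WT replicate 1, edgeR called 4 lower (Elovl6, Idi1, Scd2 and Stard4), while it then called 7.68% of all genes lower and 12.5% higher; without LCS replicate 1, LCS replicate 3, WT replicate 2 or WT replicate 3 it called none of the set. WT replicate 1 was the WT library nearest the LCS mean for 15 of the 28 genes (53.6%), a share close to that over all tested genes (55.9%). It was also the WT library with the largest share of counts on the ribosomal rows (18.5%), and a link was not tested.

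**Figure D1:**
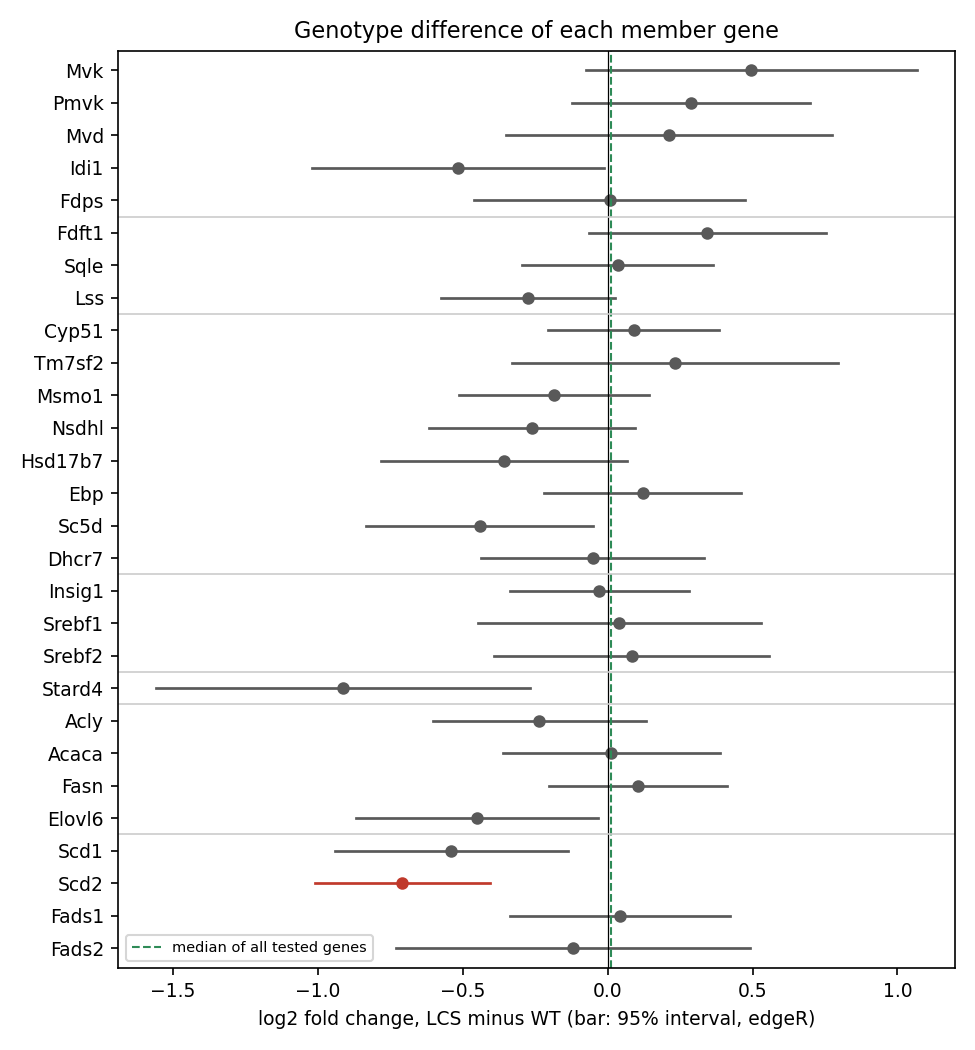
Log2 fold change (LCS minus WT, x axis) of each of the 28 tested genes (y axis, grouped by role from the mevalonate steps at the top to the desaturases at the bottom), with its 95% interval as a bar, Scd2 in red as the gene that passed the test, and the median of all tested genes as a dashed line. Scd2 lies at -0.71 and Stard4 at -0.91 with a wider interval, and the other genes lie between -0.54 and 0.50.

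The mevalonate steps did not move as a block. Hmgcs1, which codes for HMG-CoA synthase and is normally expressed widely, was listed at 0 counts in all 6 libraries and could not be compared. None of its 3481 windows of 50 bases was found in transcripts of another gene (GENCODE M21), and no RefSeq gene overlaps it. These searches did not cover the mm9 genome or the annotation used for the counts, and the reason for the 0 counts was not tested. In all, 5406 genes of the table were listed at 0 in every library. Idi1, the isopentenyl diphosphate isomerase, had 16.8, 25.9 and 28.6 CPM in LCS and 26.2, 36.6 and 39.2 CPM in WT. LCS replicate 1 was the lowest and WT replicate 1 lay within the LCS range. The log2 fold change of -0.52 (SE 0.23) missed the threshold (edgeR adjusted p = 0.1995). Mvk, mevalonate kinase, had 6.61, 4.81 and 8.58 CPM in LCS and 5.61, 4.69 and 3.81 CPM in WT. The ranges overlapped, and the log2 fold change of 0.50 (SE 0.26) did not pass (edgeR adjusted p = 0.264). The next enzymes, Pmvk (phosphomevalonate kinase) and Mvd (mevalonate diphosphate decarboxylase), were at 0.29 (SE 0.18) and 0.21 (SE 0.25). Fdps, farnesyl diphosphate synthase, was at 0.01 (SE 0.21), with 61.0 to 101.4 CPM in LCS and 66.1 to 84.0 CPM in WT. Of its windows of 50 bases 80.6% also occur in transcripts of other genes, most of them in Gm43738 (72%), so its count is uncertain. For Idi1 the share was 21.3%.

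None of the 3 genes of squalene synthesis and ring closure passed the test; 2 were above 0 and 1 below. Fdft1, squalene synthase, had 42.4, 38.3 and 60.5 CPM in LCS and 39.3, 35.7 and 36.1 CPM in WT, with LCS replicate 3 above the other 5 libraries. Its log2 fold change was 0.34 (SE 0.18, edgeR adjusted p = 0.277). Of the windows of Fdft1 10.9% also occur in Gm6781, and the protein-coding gene Ctsb overlaps Fdft1. Sqle, squalene epoxidase, an oxygen-dependent and rate-controlling step, was at 0.03 (SE 0.15) with a 95% interval from -0.30 to 0.36. Lss, lanosterol synthase, had 31.1, 30.9 and 27.5 CPM in LCS and 35.4, 36.2 and 36.7 CPM in WT. The groups did not overlap, and the difference of -0.27 (SE 0.13) missed the threshold (edgeR adjusted p = 0.245).

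None of the 8 genes of the steps from lanosterol to cholesterol passed the test; 5 were below 0 and 3 above. Sc5d, the sterol C5 desaturase, had 14.5, 17.6 and 12.0 CPM in LCS and 18.2, 20.3 and 21.6 CPM in WT. The highest LCS library lay just under the lowest WT library, and the log2 fold change was -0.44 (SE 0.18, edgeR adjusted p = 0.168). Hsd17b7, a sterol 3-ketoreductase, had 5.98, 5.17 and 4.497 CPM in LCS and 6.90, 6.46 and 6.66 CPM in WT, again with no overlap, at -0.36 (SE 0.19, edgeR adjusted p = 0.278). Nsdhl, which removes carbon from the C4 position of the sterol, also had no overlap, at -0.26 (SE 0.16), with 7.66 to 8.48 CPM in LCS and 9.55 to 10.001 CPM in WT. The 4-methyl sterol oxidase gene Msmo1 was at -0.19 (SE 0.15) and overlapped. Cyp51, which removes the C14 methyl group of lanosterol, was at 0.09 (SE 0.13), the isomerase gene Ebp at 0.12 (SE 0.15) and Dhcr7, which codes for the reductase that makes cholesterol in the last step of one branch, at -0.05 (SE 0.17). Tm7sf2 codes for a sterol C14 reductase, and so does Lbr, the lamin B receptor of the inner nuclear membrane, whose sterol reductase domain resembles it. Tm7sf2 was at 0.23 (SE 0.25) and Lbr at -0.07 (SE 0.17), with 15.1 to 19.8 CPM of Lbr in LCS and 16.2 to 20.2 CPM in WT.

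**Figure D2:**
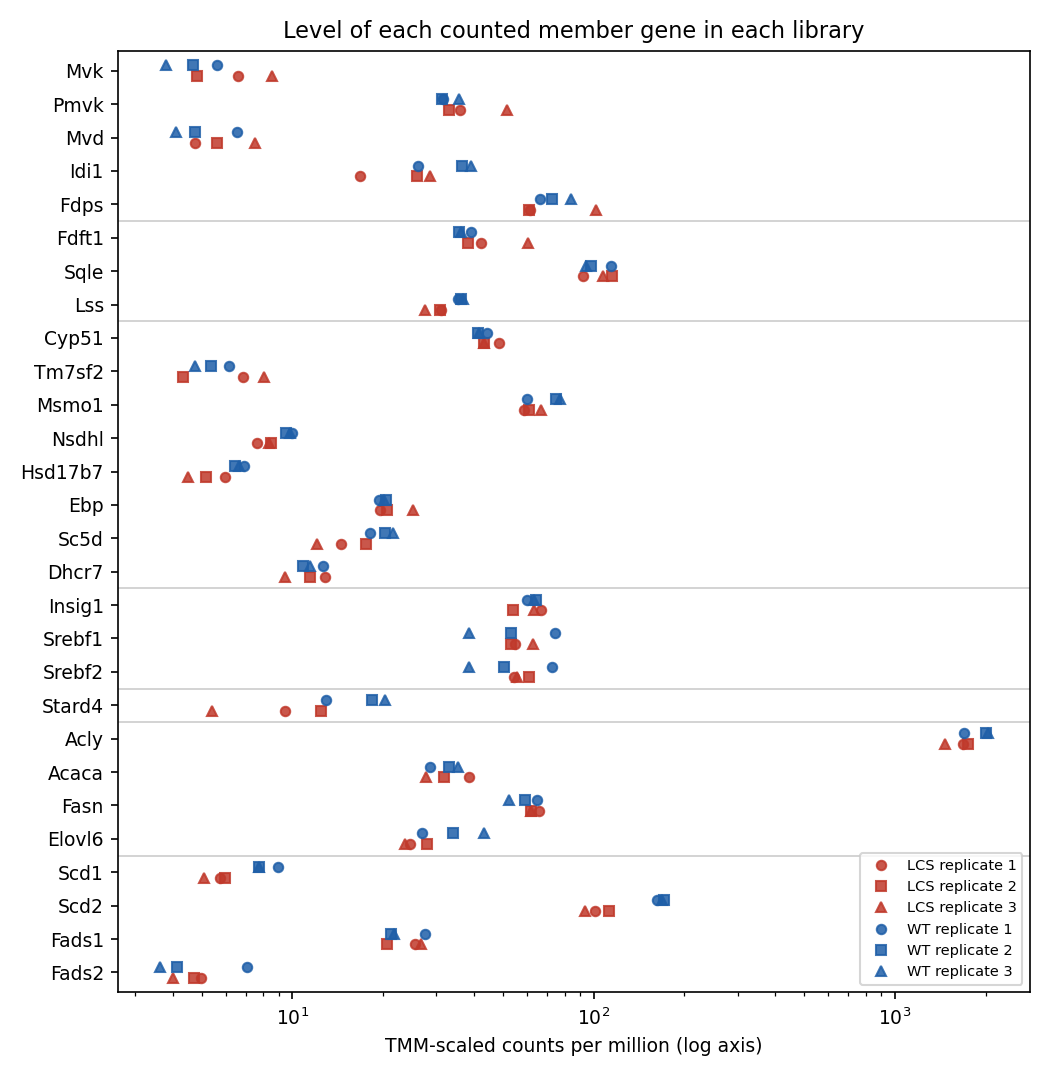
Scaled CPM (log axis) of the 28 tested genes in the 6 libraries, with LCS as red and WT as blue points, a marker shape for each replicate number (the numbers do not pair libraries) and grey lines between the roles. The 3 Scd2 values of LCS (93.6 to 112 CPM) lie apart from those of WT (163 to 171), while the Srebf1 and Srebf2 values of LCS lie inside the WT range.

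The regulators of the pathway did not pass the test. Srebf2, the SREBP that drives mostly cholesterol genes, had 54.4, 61.1 and 55.6 CPM in LCS and 72.6, 50.4 and 38.5 CPM in WT. Srebf1, which drives mostly fatty acid genes, had 54.7, 52.9 and 62.9 CPM in LCS and 74.2, 53.2 and 38.5 CPM in WT. For both, WT replicate 1 was the highest of the 6 libraries and WT replicate 3 the lowest, and the log2 fold changes were 0.08 (SE 0.21) for Srebf2 and 0.04 (SE 0.22) for Srebf1, with 95% intervals from -0.39 to 0.56 and from -0.45 to 0.53. The ratio of Srebf1 to Srebf2 counts was 0.866 to 1.13 over the 6 libraries. Insig1, which retains SREBP in the endoplasmic reticulum and is itself an SREBP target, had 66.8, 53.8 and 63.2 CPM in LCS and 59.8, 64.1 and 63.5 CPM in WT. Its log2 fold change was -0.03 (SE 0.14), with a 95% interval from -0.34 to 0.28.

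Stard4, a soluble protein that carries cholesterol between membranes, had the lowest log2 fold change of the set. It had 9.44, 12.5 and 5.42 CPM in LCS and 12.9, 18.4 and 20.4 CPM in WT. LCS replicate 3 was the lowest, and LCS replicate 2 and WT replicate 1 were close to each other at the border of the groups. The log2 fold change of -0.91 (SE 0.29) missed the threshold (edgeR adjusted p = 0.112). It was -0.64 (edgeR adjusted p = 0.311) without LCS replicate 3 and -1.08 (edgeR adjusted p = 0.0209) without WT replicate 1, and over all 15 alternatives the adjusted p ran from 0.00174 to 0.32.

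In fatty acid synthesis, Acly, which splits citrate into the acetyl-CoA that both pathways use, made up 59.4% to 66.7% of all counts on the 29 genes. It had 1677, 1739.5 and 1462.5 CPM in LCS and 1697, 2009 and 2039 CPM in WT, so WT replicate 1 lay within the LCS range. The log2 fold change was -0.24 (SE 0.16, edgeR adjusted p = 0.403). Elovl6, which lengthens palmitate to stearate, had 24.6, 27.9 and 23.6 CPM in LCS and 26.9, 34.0 and 43.2 CPM in WT. The groups overlapped at WT replicate 1, and the log2 fold change of -0.45 (SE 0.19) did not pass (edgeR adjusted p = 0.182). Fasn, fatty acid synthase, was at 0.10 (SE 0.14), and Acaca, which codes for the acetyl-CoA carboxylase that makes malonyl-CoA, was at 0.01 (SE 0.17). Of the windows of Acaca 55.4% also occur in Gm5182, so its count is uncertain. For Fasn the 95% interval went from -0.20 to 0.41.

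Of the 4 desaturases, 1 fell, and the other 3 did not pass the test. Scd1 and Scd2 code for enzymes that put the first double bond into stearate and palmitate. Scd2 had 101.2, 112 and 93.6 CPM in LCS and 163, 171 and 168 CPM in WT. All 3 WT libraries were close to each other and above every LCS library. With means of 102.3 ± 9.31 CPM for LCS and 167 ± 4.12 CPM for WT (SD, n = 3), Scd2 was 1.63-fold higher in WT, a log2 fold change of -0.71 (SE 0.14, 95% interval -1.01 to -0.41, edgeR adjusted p = 0.029). The log2 fold change stayed below 0 in all 15 alternatives (-0.75 to -0.44), and the call ended in 6 of them. These were the fits without LCS replicate 1 (edgeR adjusted p = 0.142), without LCS replicate 3 (0.111), without WT replicate 2 (0.168), without WT replicate 3 (0.0889), without WT replicates 1 and 2 together (0.0757) and with an offset for transcript length (0.169).

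Scd1 is expressed at a lower level in these islets. It had 5.77, 5.97 and 5.07 CPM in LCS and 8.94, 7.77 and 7.73 CPM in WT. Like Scd2 it had no overlap between the groups, but its log2 fold change of -0.54 (SE 0.18) did not pass (edgeR adjusted p = 0.123). Each library held 17.6 to 22.0 Scd2 counts for 1 Scd1 count. The sequences are related, and 4.01% of the windows of Scd2 also occur in transcripts of other genes, among them Scd1 (2.68%), while 4.66% of those of Scd1 are shared, mostly with Scd3 (3.49%). Fads1 and Fads2, the delta-5 and delta-6 desaturases of polyunsaturated fatty acids, were at 0.04 (SE 0.17) and -0.12 (SE 0.27). Fads1 had 20.6 to 26.7 CPM in LCS and 21.2 to 27.6 CPM in WT, and Fads2 4.02 to 4.96 CPM in LCS and 3.63 to 7.07 CPM in WT, with WT replicate 1 the highest for each.

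Levels of different genes were compared per kilobase of transcript (RPKM, computed from scaled CPM and the median length of the gene's transcripts). Acly was highest, at 434 ± 42.9 RPKM in WT and 369 ± 32.9 in LCS (SD, n = 3), followed by Fdps at 56.7 ± 6.91 RPKM in WT. Sqle (37.0 ± 3.93), Msmo1 (34.6 ± 4.57), Scd2 (30.6 ± 0.755) and Pmvk (28.4 ± 2.12) came next in WT. Sqle and Msmo1, and Msmo1 and Scd2, differed by less than the SD of Msmo1, and Scd2 and Pmvk by about the SD of Pmvk. In LCS, Scd2 was at 18.8 ± 1.71 RPKM, below Pmvk (34.7 ± 8.53), Msmo1 (30.4 ± 2.05) and Insig1 (22.7 ± 2.49). Srebf1, Ebp, Idi1, Cyp51, Srebf2 and Fdft1 formed a middle group at 10.02 to 12.9 RPKM in WT whose order is within the spread of Srebf1 (SD 4.17). The lowest tested genes in WT were Scd1 (1.69 ± 0.142), Fads2 (1.57 ± 0.589) and Hsd17b7 (1.45 ± 0.0476).

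**Figure D3:**
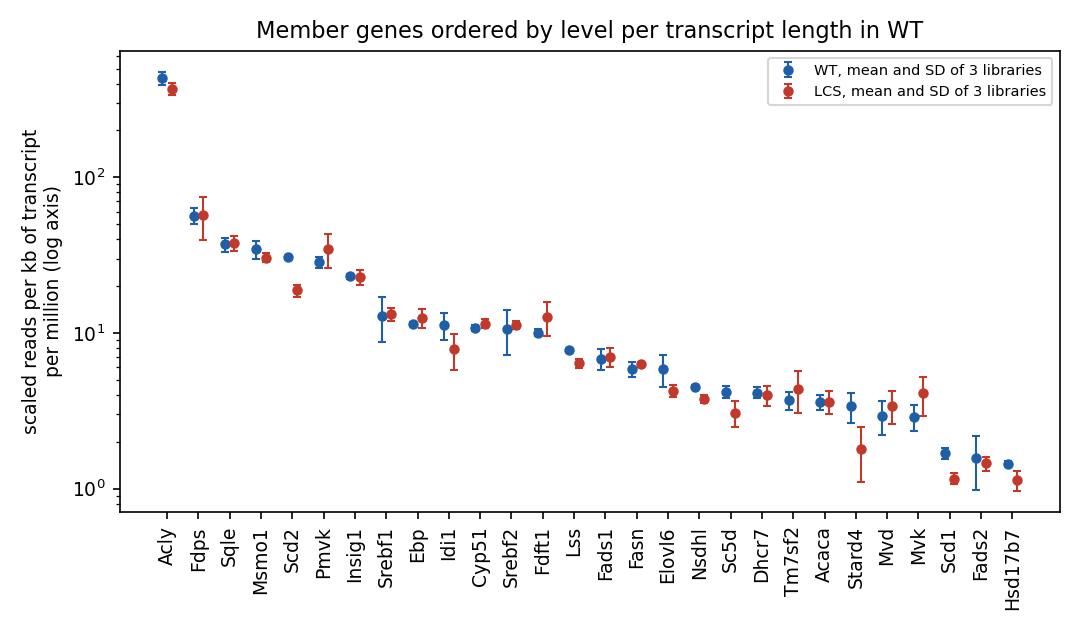
RPKM from scaled CPM (log axis) of the 28 tested genes, ordered by their WT mean, as the mean and SD of 3 libraries for WT (blue) and LCS (red). Acly stands at 434 RPKM in WT, above Fdps at 56.7, and Scd2 moves from 30.6 in WT to 18.8 in LCS.

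Transcript length moved with the fold changes. Among tested genes that code for proteins, transcripts of 1000 to 2000 nt had a median log2 fold change of 0.31, against -0.01 from 2000 to 4000 nt and -0.24 above 4000 nt. The 6, 10 and 12 genes of the set in these classes had medians of 0.22, -0.04 and -0.32. Spearman's rho between length and log2 fold change was -0.494 over the 28 genes, as a description, since all points share the same 6 libraries. Scd2 (5455 nt), Stard4 (5097 nt), Scd1 (4832 nt), Sc5d (4787 nt) and Elovl6 (5951 nt) were all in the longest class, and Idi1 (3027 nt) was in the class before it. Fasn (10050 nt) and Acaca (9026 nt), the longest of the set, were near 0. With an offset for transcript length the log2 fold change of Scd2 was -0.44 (SE 0.11), of Stard4 -0.67 (SE 0.24), of Scd1 -0.30 and of Idi1 -0.44, and none of the 28 genes was called, while 24 of 13657 protein-coding genes were called higher and 3 lower.

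**Figure D4:**
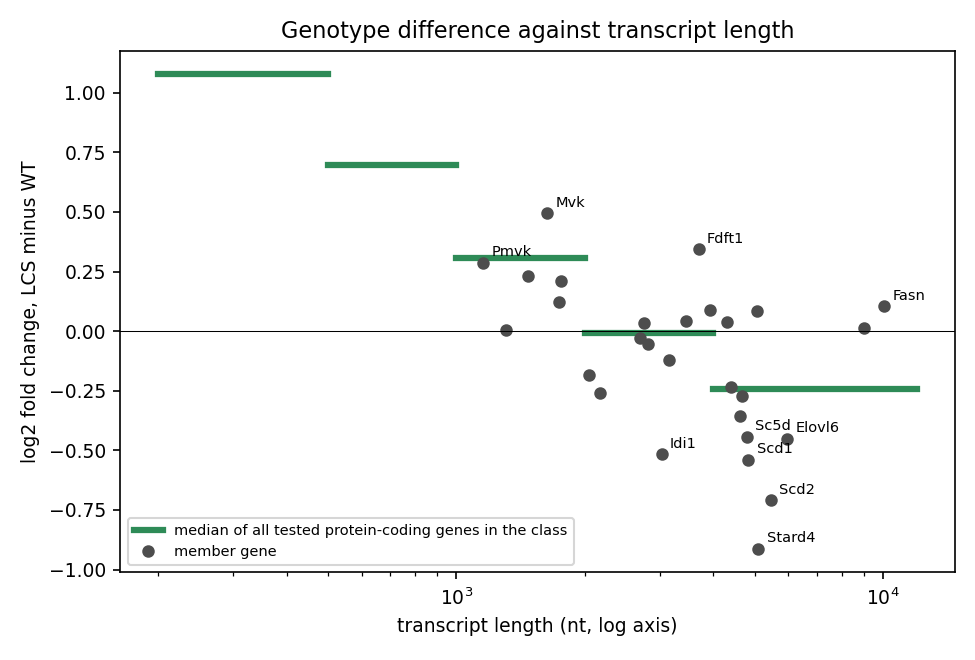
The 28 tested genes (points) by log2 fold change, LCS minus WT (y axis), and transcript length (x axis, nt, log scale), with the median of all tested protein-coding genes in each length class as a green line. Class medians run from 1.08 under 500 nt to -0.24 from 4000 nt, and Scd2 (-0.71) and Stard4 (-0.91) lie below the line of their class while Fasn (0.10) lies above it.

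The rest of the lipid pathways was described from 6 lists of 73 further genes, all of which were tested. None passed the edgeR test in either direction; at an unadjusted p under 0.05, 4 were higher (5.48%, against 13.3% of all tested genes) and 10 lower (13.7%, against 10.8%). The DESeq2 test gave 1 call up and 2 down, against 6.44% and 3.93% of all tested genes. By list, log2 fold changes had a median of 0.04 for 6 other sterol synthesis genes, -0.02 for 10 genes that use isoprenoids, -0.08 for 11 sterol sensing genes, -0.18 for 14 genes of cholesterol uptake, efflux and storage, 0.06 for 20 other fatty acid synthesis genes and -0.09 for 12 glycerolipid synthesis genes. Ggps1, which makes geranylgeranyl diphosphate, was at -0.28 (SE 0.25). Fnta, the alpha subunit shared by the enzymes that attach farnesyl and geranylgeranyl groups to proteins, had 23.5, 20.9 and 30.6 CPM in LCS and 15.1, 18.0 and 16.8 CPM in WT. The groups did not overlap, and the log2 fold change of 0.59 (SE 0.18) did not pass (edgeR adjusted p = 0.1002). Nus1, a subunit of the enzyme that makes dolichol precursors, was at -0.45 (SE 0.15, edgeR adjusted p = 0.126).

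Among the sensing genes, Insig2 was at -0.44 (SE 0.17) and Mbtps2, which codes for the site-2 protease that releases SREBP, at -0.63 (SE 0.24). Of the transport genes, the lipoprotein receptor gene Vldlr was at -0.48 (SE 0.19) and Npc2, whose product carries cholesterol out of lysosomes, at 0.38 (SE 0.16). The mitochondrial fatty acid synthesis gene Oxsm was at -0.59 (SE 0.24) and the elongase gene Elovl2 at -0.48 (SE 0.18). Acsl3 and Acsl4, which activate fatty acids with coenzyme A, had no overlap between the groups. Acsl3 had 6.18 ± 0.433 CPM in LCS against 8.85 ± 0.404 in WT, and Acsl4 27.99 ± 6.43 against 42.4 ± 6.95 (SD, n = 3), with log2 fold changes of -0.52 (SE 0.17) and -0.60 (SE 0.20). Neither passed (edgeR adjusted p = 0.119 and 0.124).

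**Figure D5:**
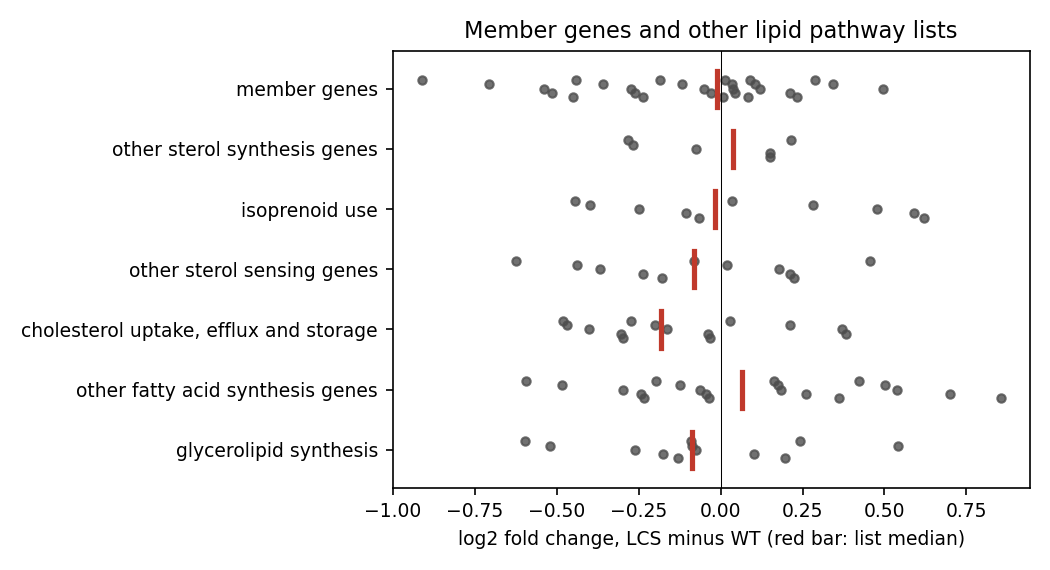
Log2 fold change (LCS minus WT, x axis) of the 28 tested genes of the set and of the 73 further lipid genes in 6 lists (y axis), with a point for each gene and the list median as a red bar. Medians lie between -0.18 and 0.06, and each list has genes on both sides of 0.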

How the data were processed

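Messenger RNA of islet pools was counted in 3 LCS and 3 WT libraries. The authors deposited raw counts per gene in 1 table; per the submitters' processing notes, the tools were TopHat2 2.1.1 with Bowtie2 2.2.9, HTSeq 0.9.0, FastQC and bcl2fastq 2.20, with mm9 as the genome. The annotation and the strand setting were not given in the sources used here. Reads from stretches where genes overlap may therefore have been left out or given to either gene. Such pairs include Fdft1 with Ctsb, Tm7sf2 with Vps51, Srebf1 with Rai1 and Acaca with Tada2a. Groups came from the labels. Replicate numbers follow accession order.

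Counts of the 14539 genes kept by filterByExpr were tested with edgeR 4.0.16 in R 4.3.3 (TMM, quasi-likelihood, genotype as the only term, Benjamini-Hochberg over all tested genes, threshold 0.05). The common biological coefficient of variation was 21.2%. The fit was also run on counts simulated from its own gene means and spread. Such counts hold no length trend, so that run does not check the calls reported here. Alternatives were DESeq2 1.42.0 (size factors, Wald test), limma 3.58.1 (voom with sample weights), 2 filters, leaving out ribosomal rows, acinar genes or libraries, and a loess length offset (span 0.5). Lengths were medians over GENCODE M21 transcripts, of those paired with RefSeq where present; coordinates of promoters are GRCm38.p6, not mm9. Figures were drawn with matplotlib 3.10.9. Protein sequences were not analysed here.

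The genes and lists were chosen with earlier results of these data known. Named were all genes of the set, in full those called and the 2 with the smallest p of each role, and of each further list the called genes and the 2 with the smallest p, with Lbr and Lmna; 1 gene that this rule names is not reported here. Marker lists of beta, alpha, delta, PP, acinar, duct, macrophage, endothelial, stellate and fat cells were summed.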

Additional observations from a re-analysis of the deposited data

How the results depend on the processing

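Of 413 values of the set's genes over 15 alternatives, 35 changed sign, in 12 genes that passed the test in none of the fits. Against 1 lower gene of the set in the reported fit, DESeq2 gave 3 (3.93% of all genes) and the length offset gave 0. Limma-voom with sample weights gave 8 lower and 1 higher, while calling 16.3% and 19.9% of all genes. Leaving out 1 library gave 0 to 4 lower. The 4 came without WT replicate 1, where 7.68% of all genes were called lower. Of the further pathway genes, DESeq2 called 1 higher and 2 lower (6.44% and 3.93% of all genes). Limma-voom called 11 and 15 (19.9% and 16.3% of all genes). Leaving out 1 library gave 0 to 2 higher and 0 to 6 lower. The 2 and 6 came without WT replicate 1, where 12.5% of all genes were called higher and 7.68% lower. The cause of these differences was not tested.

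Values that crossed 0 were, for Fdps, -0.016 with DESeq2 size factors, -0.016 with the DESeq2 test, -0.13 with limma-voom, -0.0010 with no filter, -0.39 with the length offset and -0.17 without WT replicates 1 and 2, and for Acaca -0.012 with both DESeq2 settings and -0.12 without WT replicates 1 and 2. Limma-voom gave 0.10 for Dhcr7 and 0.18 for Fads2, a minimum of 10 CPM gave 0.026 for Insig1, and the fit without WT replicates 1 and 2 gave 0.33 for Fads2. The length offset gave -0.17 for Pmvk, -0.067 for Tm7sf2, -0.075 for Ebp, 0.00043 for Dhcr7, 0.0030 for Insig1 and 0.052 for Lbr. Leaving out 1 library gave -0.27 to 0.16 for Fdps, -0.024 to 0.14 for Sqle, -0.13 to 0.066 for Dhcr7, -0.067 to 0.084 for Insig1, -0.17 to 0.31 for Srebf1, -0.11 to 0.36 for Srebf2, -0.098 to 0.13 for Acaca, -0.026 to 0.18 for Fads1, -0.30 to 0.23 for Fads2 and -0.17 to 0.040 for Lbr. No paired analysis was possible because the labels share no replicate numbers between the groups. With 3 libraries a group, intervals of the set's genes mostly reach 0.3 or more on the log2 scale to each side. Smaller differences could therefore be missed, and so could larger ones. In the reported fit, Stard4 at -0.91 (edgeR adjusted p = 0.112) and Scd1 at -0.54 (0.123) missed the threshold. Only Scd2 of the set passed, at -0.71 (edgeR adjusted p = 0.029).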
